A study of Mus musculus with 12 samples.

Results

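The genes that moved the same way after local irradiation (IR) in both host genotypes were sought in 4 samples of MC38 tumors, out of 12 samples in the series. Of the 561 genes of the immunology panel, 302 reached 50 normalized counts in at least 1 sample of the WT pair and of the Sirpα-/- pair, and these were considered. After IR, 43 of the 302 (14.2%) were higher by 2-fold or more in WT mice and again in Sirpα-/- mice, and 0 (0.0%) were lower by 2-fold or more in both. The 43 genes held effector genes of cytotoxic lymphocytes (*Prf1*, *Gzmb*), interferon-inducible genes (*Mx1*, *Ifit2*, *Ifi204*), chemokines for T cells and monocytes (*Cxcl10*, *Cxcl11*, *Ccl2*, *Ccl7*, *Ccl8*) and the checkpoint pair *Cd274* and *Pdcd1*. Every one of the 43 had both irradiated values above both non-irradiated values, as did 193 (63.9%) of all genes considered, so this alone did not set them apart. In 22 of the 43 all 4 values were at least 50, and in the others the irradiated value alone brought a pair over that level.

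MC38 is a colorectal adenocarcinoma line of C57BL6 mice, and it was grown in WT hosts and in Sirpα-/- hosts of 6 to 8 weeks. SIRPα is an inhibitory receptor of macrophages and other myeloid cells, and its ligand CD47 marks cells as self. The deletion is carried by the host, while the engrafted cancer cells were the same line in both genotypes. The 4 groups were WT without IR, WT after a single dose of 8 Gy to a tumor over 200 mm3, Sirpα-/- without IR, and Sirpα-/- after that dose. According to the methods, each irradiated sample pooled the RNA of 4 mice, 2 taken at 12 h and 2 at 18 h. A group is therefore 1 sample with no measure of how mice differ, and the WT and Sirpα-/- pairs stood as 2 replicates of the IR effect. Transcripts of the deleted gene were not analysed here, so the genotype labels were not checked against it.

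Ionizing radiation damages DNA, and nucleic acids that leak into the cytosol can start the production of type I interferons. Interferons signal through transcription factors that bind elements in the promoters of their target genes, the interferon-stimulated response element (ISRE) and the gamma-activated site (GAS). Among those targets are the chemokines CXCL9, CXCL10 and CXCL11, which attract T cells and natural killer (NK) cells through CXCR3, and PD-L1, the product of *Cd274*, which restrains T cells through PD-1. Cytotoxic T cells and NK cells kill by releasing perforin and granzymes. Bulk tumor RNA holds all of these cells at once, and in such samples more cells of a type cannot be told apart from more RNA per cell.

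Promoters are shown for *Cxcl10*, *Fcgr4* and *Ctss*, the 3 genes of the 43 with an ISRE core in the window searched, and for *Irf8*, 1 of 2 genes whose window held the GAS at 2 positions (the other was *Il18r1*, at -219 and -152). The RefSeq promoter table (GRCm38.p6, 250 bases before to 50 after each start) matched 28 of the 43 genes by symbol, some with more than 1 window, and a gene counts as matched where any window holds the motif. The ISRE core was searched as GAAANNGAAA and the GAS as TTCNNNGAA, on both strands, and capitals mark the matches.
Cxcl10: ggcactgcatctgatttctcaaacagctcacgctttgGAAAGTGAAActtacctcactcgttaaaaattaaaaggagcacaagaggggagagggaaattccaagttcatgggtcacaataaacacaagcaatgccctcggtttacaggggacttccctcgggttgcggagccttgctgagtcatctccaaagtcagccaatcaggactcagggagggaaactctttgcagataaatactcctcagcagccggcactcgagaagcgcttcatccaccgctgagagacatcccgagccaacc
Fcgr4: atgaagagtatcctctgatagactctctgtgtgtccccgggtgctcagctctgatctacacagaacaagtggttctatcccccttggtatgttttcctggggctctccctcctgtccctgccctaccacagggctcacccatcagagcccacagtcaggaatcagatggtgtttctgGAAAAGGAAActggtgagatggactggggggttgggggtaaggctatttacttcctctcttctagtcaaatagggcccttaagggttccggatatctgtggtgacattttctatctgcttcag
Ctss: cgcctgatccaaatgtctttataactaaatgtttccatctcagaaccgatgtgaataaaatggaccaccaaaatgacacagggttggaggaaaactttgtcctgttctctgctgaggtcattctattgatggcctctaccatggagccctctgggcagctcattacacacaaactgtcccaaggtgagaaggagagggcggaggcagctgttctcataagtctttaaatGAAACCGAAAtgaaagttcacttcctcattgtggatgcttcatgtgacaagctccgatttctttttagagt
Irf8: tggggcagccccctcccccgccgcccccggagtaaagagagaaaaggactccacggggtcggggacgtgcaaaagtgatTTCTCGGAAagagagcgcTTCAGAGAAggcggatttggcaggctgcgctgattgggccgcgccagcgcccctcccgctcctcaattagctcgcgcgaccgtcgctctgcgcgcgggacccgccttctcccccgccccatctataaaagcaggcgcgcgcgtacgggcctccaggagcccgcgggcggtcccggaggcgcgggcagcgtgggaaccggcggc
These windows lie at chr5:92348840-92349139, minus strand (*Cxcl10*), chr1:171018676-171018975, plus strand (*Fcgr4*), chr3:95526536-95526835, plus strand (*Ctss*) and chr8:120736108-120736407, plus strand (*Irf8*), each printed 5′ to 3′ along its gene. The first base of the ISRE core lay at -213 from the start site in *Cxcl10*, at -73 in *Fcgr4* and at -21 in *Ctss*, and those of the GAS in *Irf8* at -171 and -153. A second *Irf8* window held neither motif. An ISRE core was found for 3 of the 28 genes (10.7%), against 20 of 224 considered genes with a promoter (8.93%) and 1079 of 27025 genes of the table (3.99%). The GAS was found for 7 of the 28 (25%), against 30 of 224 (13.4%) and 2582 of 27025 (9.55%). No promoter of the 28 genes held both motifs. A match of letters is a description and not evidence of a binding site.

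The values are normalized counts, probe counts that the authors corrected for background with negative controls and scaled by positive controls, per the methods. In the 4 samples they rested on 159476 to 261853 net counts, and 1 count was worth 0.776 to 1.504 normalized counts. A log2 ratio is that of (normalized count + 10) with IR over without IR, and its ± is a 95% interval that covers counting error only. Over the 302 genes the median log2 ratio was 0.65 in WT and 0.54 in Sirpα-/- mice, so most genes of the panel were higher after IR. The 14 reference genes summed to 58124 in each of the 4 samples (and to a different constant in each of the other tumor models), so the deposited values appear to be scaled to their total within a tumor model, a step the methods do not describe. Rescaling to the geometric mean of the reference genes left the medians at 0.63 and 0.39, whereas scaling to the median ratio of 231 well-measured genes brought them to 0.11 and 0.05. The low end of the irradiated Sirpα-/- sample stood higher than in the other 3, with the 20th percentile of its genes at 20.5 normalized counts against 1 to 5.27. The part of this offset in the results on low genes was not tested.

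Within WT mice 97 of 312 genes (31.1%) were 2-fold or more higher after IR and 1 (0.321%) was lower. Within Sirpα-/- mice 118 of 337 (35.0%) were higher and 4 (1.19%) lower. Among the 302 genes considered in both, 89 were higher in WT and 88 in Sirpα-/- mice, so that the 43 shared genes made up 48.3% of the former and 48.9% of the latter. The ratios had the same sign in most genes, 215 being above 0 in both genotypes and 15 below 0 in both. Their size went together only loosely, with Pearson's r = 0.24 and Spearman's rho = 0.34 across the 302 genes, which share their libraries and are not independent. In the 43 shared genes the median log2 ratio was 1.54 in WT and 1.58 in Sirpα-/- mice, and the counting interval was above 0 in both genotypes for all 43. Choosing genes at a log2 ratio of 1 or more fixed this. The widest ± among them was 0.55 in WT and 0.54 in Sirpα-/- mice. The genes just inside the threshold were *Cd83* (1.16 in WT and 1.01 in Sirpα-/-), *Irf5* (1.02 and 1.29) and *Itga4* (1.04 and 1.06), and those just outside were *Ikbke* (0.996 and 1.78), *Tlr4* (0.98 and 1.10) and *Trem2* (0.98 and 2.22).

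**Figure D1:**
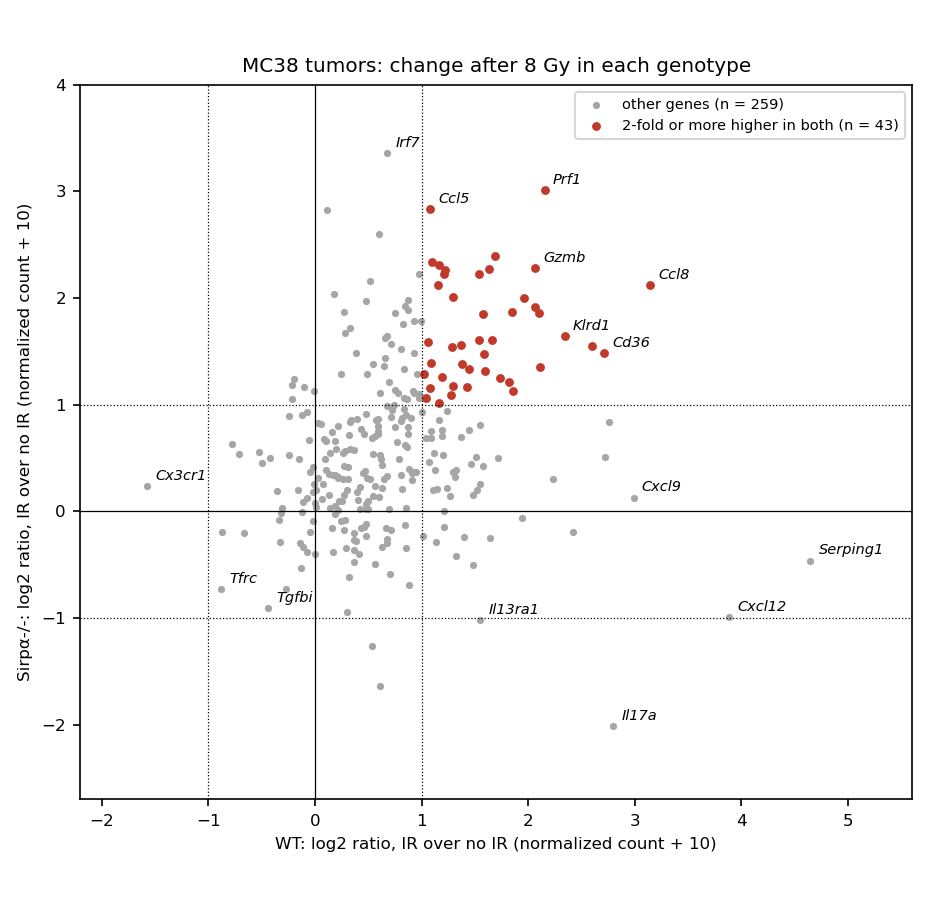
Log2 ratio of (normalized count + 10), IR over no IR, in WT (x axis) and Sirpα-/- mice (y axis) for the 302 genes considered in MC38 tumors, 1 point per gene. Dotted lines mark a change of 2-fold, and the 43 genes past it in both genotypes (red) fill the upper right corner, with no gene in the lower left one.

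A limma fit to both pairs, with the genotype as a block, tested 347 genes whose highest value was at least 50. It placed 64 genes (18.4%) higher after IR at an adjusted p under 0.05 (Benjamini-Hochberg) and 0 (0.0%) lower, or 140 higher and 1 lower at an unadjusted p under 0.05. Of the 43 shared genes 40 were among the 64, a count from the same contrast that chose them. With 1 residual degree of freedom this fit borrows nearly all of its error from the other genes, and the calls moved with the setting: 0 genes passed after rescaling to the geometric mean of the reference genes (100 did at an unadjusted p under 0.05), 25 rose and 3 fell after scaling to the median ratio, and 81 rose when all 12 samples were fitted. The 2-fold rule counted 39 shared genes with the first scaling and 16 with the second. Those 16 were *Prf1*, *Gzmb*, *Klrc1*, *Klrd1*, *Il2rb*, *Slamf7*, *Cd3d*, *Cxcr6*, *Il18r1*, *Ptpn22*, *Cd274*, *Cxcl11*, *Ccl8*, *Ifi204*, *Fcgr4* and *Cd36*. All 43 kept ratios above 0 in both genotypes under either scaling, the lowest being 0.52 after scaling to the median ratio. A scaling shifts the ratios of a pair by nearly the same amount, so genes chosen at 1 or more had little room to turn. Below, adjusted p-values are those of the limma fit to the values as deposited.

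Transcripts of the cytotoxic machinery rose in both genotypes. *Prf1*, which encodes the pore-forming protein perforin, rose from 77.2 to 378 normalized counts in WT and from 20.99 to 240.3 in Sirpα-/- mice. Its irradiated values were well above both others, with log2 ratios of 2.15 ± 0.31 in WT and 3.01 ± 0.46 in Sirpα-/- mice, and the adjusted p of 0.00166 was the smallest in the limma fit. *Gzmb*, encoding the protease granzyme B that enters target cells through those pores, rose from 104 to 466 in WT and from 28.5 to 177 in Sirpα-/- mice. The log2 ratios were 2.07 ± 0.27 in WT and 2.28 ± 0.45 in Sirpα-/- mice (adjusted p = 0.00228), although the WT tumor had the higher level before and after IR. The sister gene *Gzma* went from 163 to 231 in WT and from 25.3 to 128 in Sirpα-/- mice, with log2 ratios of 0.47 ± 0.29 in WT and 1.97 ± 0.47 in Sirpα-/- mice (adjusted p = 0.0453).

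Receptors of NK cells and activated CD8 T cells rose as well. *Klrd1*, encoding CD94, rose from 81.1 to 452 normalized counts in WT and from 89.9 to 302 in Sirpα-/- mice, with log2 ratios of 2.34 ± 0.29 in WT and 1.64 ± 0.32 in Sirpα-/- mice (adjusted p = 0.00391). *Klrc1*, encoding its inhibitory partner NKG2A, rose from 35.3 to 166 in WT and from 38.2 to 182 in Sirpα-/- mice, with nearly equal log2 ratios of 1.96 ± 0.41 in WT and 2.00 ± 0.42 in Sirpα-/- mice (adjusted p = 0.00391). Both irradiated tumors thus lay within a narrow band of *Klrc1* levels, above the band of the non-irradiated ones. *Klrk1*, encoding the activating receptor NKG2D, rose from 38.4 to 103 in WT and from 25.3 to 159 in Sirpα-/- mice and differed more between genotypes, with log2 ratios of 1.22 ± 0.45 in WT and 2.26 ± 0.46 in Sirpα-/- mice (adjusted p = 0.0124). These genes belong to a family with close copies, and the panel's probe sequences were not used here, so some signal may be shared between members. *Slamf7*, a receptor that activates NK cells, rose from 63.2 to 208 in WT and from 53.3 to 218 in Sirpα-/- mice (adjusted p = 0.00534). *Il2rb*, the beta chain of the IL-2 and IL-15 receptors, rose from 91.2 to 284 in WT and from 64.1 to 336 in Sirpα-/- mice (adjusted p = 0.0045).

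Of the 16 measured genes listed as cytotoxic effectors, 10 were considered and 6 were shared, counting *Ccl5*, and 8 of the 11 tested were higher in limma, where 14.2% of all considered genes were shared and 18.4% of all tested were higher. The median log2 ratio of the 10 was 1.31 in WT and 1.98 in Sirpα-/- mice, against 0.65 and 0.54 over all genes considered. Of the 10, 8 had ratios above 0 in both genotypes (215 of the 302 did). *Il12rb1* had the lowest ratio of the list in Sirpα-/- mice. It went from 32.98 to 103 normalized counts in WT and from 92.05 to 76.5 in Sirpα-/- mice. Its log2 ratios were 1.40 ± 0.46 in WT and -0.24 ± 0.39 in Sirpα-/- mice. *Eomes*, encoding a transcription factor of NK and memory CD8 T cells, changed less. It went from 104 to 141 in WT and from 87.7 to 95.2 in Sirpα-/- mice. Its log2 ratios were 0.41 ± 0.35 in WT and 0.11 ± 0.37 in Sirpα-/- mice. *Xcl1*, a chemokine made by NK cells, went from 91.96 to 91.01 in WT and from 30.7 to 79.2 in Sirpα-/- mice.

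Genes of T cells were low in every sample. *Cd3d*, a chain of the T cell receptor complex, rose from 16.7 to 69.95 normalized counts in WT and from 25.3 to 88.1 in Sirpα-/- mice, with log2 ratios of 1.58 ± 0.53 in WT and 1.47 ± 0.49 in Sirpα-/- mice (adjusted p = 0.0255). *Lck*, the kinase that starts signaling from that complex, rose from 28.3 to 89.5 in WT and from 30.7 to 96.1 in Sirpα-/- mice (adjusted p = 0.0255). Their levels after IR were below 100 normalized counts in both genotypes. Only these 2 of 14 measured T cell markers were considered, and both were shared (14.2% of all genes considered were). *Cd8a* went from 2.72 to 29.3 in WT and from 9.15 to 72.98 in Sirpα-/- mice, and passed in limma (adjusted p = 0.0453) without reaching 50 in WT. *Cd4* stayed under 20, with values of 1 and 1.5 without and with IR in WT and 3.77 and 16.02 in Sirpα-/- mice. The 14 include *Cd3eap*, which is not particular to T cells, with 33.0 and 47.4 without and with IR in WT and 25.3 and 74.8 in Sirpα-/- mice. The summed level of the 14, with *Cd3eap*, was 121 and 371 without and with IR in WT and 175 and 728 in Sirpα-/- mice. That of 10 NK cell markers was 322 and 939, and 288 and 775. Many of these values lie near the 20th percentile of the irradiated Sirpα-/- sample.

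Several other shared genes are expressed by lymphocytes. *Pdcd1*, encoding PD-1, rose from 8.92 to 57.9 normalized counts in WT and from 11.3 to 67.6 in Sirpα-/- mice, with log2 ratios of 1.84 ± 0.55 in WT and 1.87 ± 0.54 in Sirpα-/- mice (adjusted p = 0.0255). *Icos*, a co-stimulatory receptor of activated T cells, rose from 10.5 to 62.4 in WT and from 18.8 to 56.96 in Sirpα-/- mice (adjusted p = 0.0453). After IR both genes lay between 57.0 and 67.6 in both genotypes. *Cxcr6*, a chemokine receptor of tissue-resident T and NK cells, rose from 22.1 to 83.5 in WT and from 31.8 to 117 in Sirpα-/- mice (adjusted p = 0.0154). *Il18r1*, the binding chain of the IL-18 receptor, rose from 3.49 to 71.5 in WT and from 18.8 to 74.8 in Sirpα-/- mice (adjusted p = 0.016), where the lowest value rests on 4.50 net counts. The irradiated values of *Il18r1* lay close together although the starting values did not. *Ptpn22*, a phosphatase that restrains signaling from lymphocyte receptors, rose from 31.4 to 121 in WT and from 34.99 to 127 in Sirpα-/- mice, with log2 ratios of 1.66 ± 0.45 in WT and 1.61 ± 0.44 in Sirpα-/- mice (adjusted p = 0.0118). *Gata3* and *Il7r*, a transcription factor of T cell lineages and the IL-7 receptor chain, had log2 ratios of 1.09 to 1.29 but did not pass in limma (adjusted p = 0.0781 and 0.0613). *Gata3* went from 15.9 to 53.4 in WT and from 18.8 to 55.2 in Sirpα-/- mice, and *Il7r* went from 17.5 to 56.4 in WT and from 33.9 to 83.7 in Sirpα-/- mice. *Itga4*, the alpha-4 integrin of leukocytes, went from 23.7 to 59.4 in WT and from 30.7 to 74.8 in Sirpα-/- mice, and did not pass either (adjusted p = 0.0801). These were the only 3 of the 43 that missed.

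**Figure D2:**
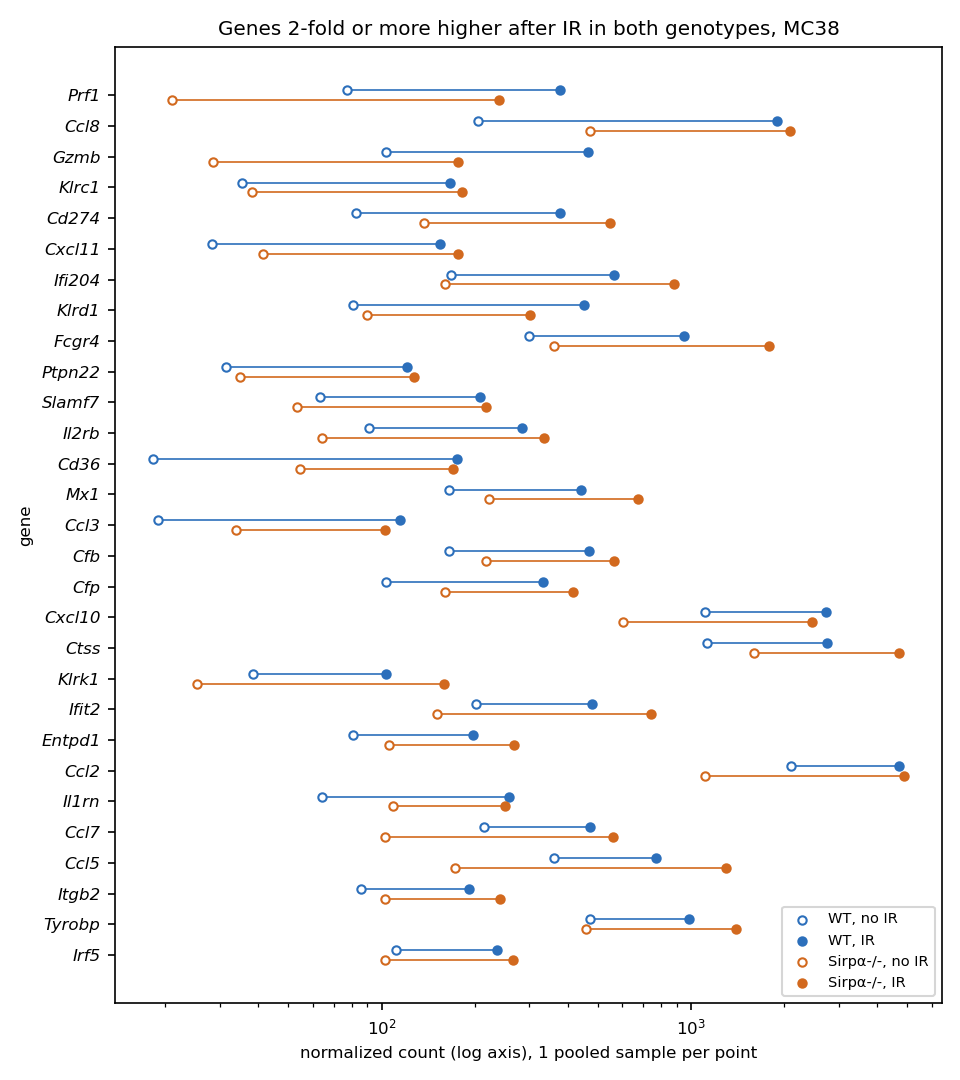
Normalized counts (log axis) in the 4 MC38 samples for 29 of the 30 shared genes whose larger value was at least 100 in both pairs, ordered by the smaller of their 2 ratios. Open circles are tumors without IR and filled circles tumors after IR, and for every gene shown both filled circles lie to the right of both open ones.

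Some of the genes that interferons induce rose in both genotypes, and others did not. *Cxcl10*, whose promoter with its ISRE core is printed above, rose from 1109 to 2734 normalized counts in WT and from 603 to 2457 in Sirpα-/- mice, with log2 ratios of 1.29 ± 0.10 in WT and 2.01 ± 0.13 in Sirpα-/- mice (adjusted p = 0.0136). Irradiated tumors of both genotypes reached a similar *Cxcl10* level from starting levels that differed. *Cxcl11* rose from 28.3 to 154 in WT and from 41.5 to 176 in Sirpα-/- mice, with log2 ratios of 2.10 ± 0.43 in WT and 1.86 ± 0.41 in Sirpα-/- mice (adjusted p = 0.00391). Their receptor *Cxcr3* stayed under 20 normalized counts in all 4 samples and was not considered. *Cd274*, encoding PD-L1, rose from 82.7 to 378 in WT and from 137 to 547 in Sirpα-/- mice, with log2 ratios of 2.07 ± 0.30 in WT and 1.92 ± 0.26 in Sirpα-/- mice (adjusted p = 0.00391). *Irf8*, a transcription factor of myeloid and dendritic cells that interferon-gamma induces, rose from 33.8 to 88.0 in WT and from 18.8 to 133 in Sirpα-/- mice (adjusted p = 0.0136), and both GAS matches of its promoter are shown above.

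Of 15 measured genes listed with interferon-gamma, its receptor and its induced genes, 12 were considered. Of the 12, 8 had ratios above 0 in both genotypes (215 of the 302 did). Shared were 5 (14.2% of the 302 were), among them those just described. In limma 5 of 13 tested were higher (18.4% of the 347 were). The median log2 ratio of the 12 was 1.03 in WT and 0.68 in Sirpα-/- mice. *Cxcl9*, the third CXCR3 ligand, was no member of the shared set, since it went from 206 to 1704 normalized counts in WT and from 469 to 514 in Sirpα-/- mice. *Irf1* and *Socs1*, an activator and an inhibitor that interferon-gamma induces, were higher by less than 2-fold, with log2 ratios in WT and Sirpα-/- mice of 0.79 and 0.49 for *Irf1* and 0.90 and 0.88 for *Socs1*. *Ifng* itself was near the floor, with values of 1 and 8.27 without and with IR in WT and 2.69 and 24.9 in Sirpα-/- mice, where 3 counts are worth 2.33 to 4.51 normalized counts.

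Among antiviral genes, *Mx1*, encoding a dynamin-like GTPase that blocks viruses, rose from 165 to 442 normalized counts in WT and from 222 to 673 in Sirpα-/- mice (adjusted p = 0.0182). *Ifit2*, encoding a tetratricopeptide protein that binds viral RNA, rose from 201 to 479 in WT and from 151 to 744 in Sirpα-/- mice, with log2 ratios of 1.21 ± 0.23 in WT and 2.23 ± 0.24 in Sirpα-/- mice (adjusted p = 0.0136). *Ifi204*, a member of the family of interferon-inducible DNA sensors, rose from 168 to 563 in WT and from 159.9 to 881 in Sirpα-/- mice, with log2 ratios of 1.69 ± 0.23 in WT and 2.39 ± 0.24 in Sirpα-/- mice (adjusted p = 0.00465). After IR all 3 genes were higher in the Sirpα-/- tumor than in the WT tumor. *Ifi204* has close paralogs, so the probe may also count these. *Irf5*, a transcription factor below Toll-like receptors, rose from 111 to 237 in WT and from 103 to 266 in Sirpα-/- mice (adjusted p = 0.0359). All 14 considered genes of the antiviral list, out of 15 measured, had ratios above 0 in both genotypes (215 of the 302 did), 4 were shared (14.2% of the 302 were) and 9 of 14 tested were higher in limma (18.4% of the 347 were). The median was 1.01 in WT and 1.39 in Sirpα-/- mice. Members that missed the shared set by little were *Stat2* (0.96 and 1.28), *Ifi35* (0.93 and 1.48) and *Ikbke* (0.996 and 1.78), all past the limma threshold (adjusted p = 0.0453, 0.0453 and 0.018), whereas *Tbk1*, a kinase above IRF3, had log2 ratios of 0.17 in WT and 0.35 in Sirpα-/- mice. Of the interferons themselves, *Ifnb1* had values of 1 and 1.5 without and with IR in WT and 3.77 and 24.03 in Sirpα-/- mice, and *Ifna1* had values of 1 and 9.78 without and with IR in WT and 56.5 and 195 in Sirpα-/- mice. In WT tumors both stayed under 10. The interferon-alpha genes are near-identical copies, so the *Ifna1* value may include others. Of 5 genes listed as type I interferons and their receptor only the receptor chains *Ifnar1* and *Ifnar2* were considered, and 0 were shared. The interferon genes of the list were too low to be counted.

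Of the 4 measured CC chemokines that attract monocytes through CCR2 or related receptors, 3 were shared, where 14.2% of all genes considered were. *Ccl8* rose from 205 to 1896 normalized counts in WT and from 472 to 2091 in Sirpα-/- mice, with log2 ratios of 3.15 ± 0.18 in WT and 2.12 ± 0.14 in Sirpα-/- mice (adjusted p = 0.00228). *Ccl2*, encoding MCP-1, the main ligand of CCR2, rose from 2108 to 4708 in WT and from 1112 to 4889 in Sirpα-/- mice, with log2 ratios of 1.16 ± 0.07 in WT and 2.13 ± 0.10 in Sirpα-/- mice (adjusted p = 0.0136). *Ccl7*, another CCR2 ligand, rose from 215 to 470.1 in WT and from 103 to 559 in Sirpα-/- mice, with log2 ratios of 1.10 ± 0.23 in WT and 2.33 ± 0.29 in Sirpα-/- mice (adjusted p = 0.0136). For *Ccl2* and *Ccl7* the irradiated tumors of both genotypes ended close together, and the larger ratio in Sirpα-/- mice went with a lower starting level. With the receptor the list held 5 genes, and its median log2 ratio was 1.10 in WT and 2.12 in Sirpα-/- mice. *Ccl12*, the fourth ligand, went from 502 to 467 in WT and from 159.9 to 370.2 in Sirpα-/- mice, and *Ccr2*, the receptor, went from 204 to 247 in WT and from 125 to 141 in Sirpα-/- mice.

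*Ccl5*, which attracts T cells and monocytes, rose from 359.7 to 769 normalized counts in WT and from 173 to 1292 in Sirpα-/- mice, with log2 ratios of 1.08 ± 0.18 in WT and 2.83 ± 0.22 in Sirpα-/- mice (adjusted p = 0.0136). It had the widest spread between genotypes of the 43 genes, 1.76 on the log2 scale. *Ccl3*, a chemokine of macrophages, rose from 19.01 to 115 in WT and from 33.9 to 102 in Sirpα-/- mice, with log2 ratios of 2.11 ± 0.48 in WT and 1.36 ± 0.46 in Sirpα-/- mice (adjusted p = 0.0136). *Ccl9*, another chemokine for myeloid cells, went from 191 to 209.8 in WT and from 163 to 210 in Sirpα-/- mice. Neutrophil chemokines were not shared. Of 6 measured genes of these chemokines and their receptors only *Cxcl1* was considered, and it went from 55.5 to 60.9 in WT and from 25.3 to 241 in Sirpα-/- mice (adjusted p = 0.0596). Of 23 homing and other chemokine genes 7 were considered, and *Cxcr6* was the 1 shared, a share near the 14.2% of all genes considered.

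Several of the remaining shared genes are expressed by macrophages and other myeloid cells, some of them by other cells as well. *Fcgr4*, an activating Fc receptor of macrophages and monocytes, rose from 299.9 to 948 normalized counts in WT and from 360.1 to 1780 in Sirpα-/- mice, with log2 ratios of 1.63 ± 0.18 in WT and 2.27 ± 0.16 in Sirpα-/- mice (adjusted p = 0.00717). *Ctss*, the protease cathepsin S that trims the invariant chain of MHC class II, rose from 1123 to 2751 in WT and from 1602 to 4681 in Sirpα-/- mice, with log2 ratios of 1.28 ± 0.10 in WT and 1.54 ± 0.08 in Sirpα-/- mice (adjusted p = 0.0182). ISRE cores were found in the promoters of both, as shown above. *Tyrobp*, the adaptor DAP12 of myeloid and NK receptors, rose from 469.9 to 988 in WT and from 458 to 1394 in Sirpα-/- mice (adjusted p = 0.0359). *Cd36*, a scavenger receptor for lipids and dying cells, rose from 18.2 to 175 in WT and from 54.4 to 170 in Sirpα-/- mice, with log2 ratios of 2.71 ± 0.45 in WT and 1.48 ± 0.39 in Sirpα-/- mice (adjusted p = 0.00391). The 2 genotypes reached nearly the same *Cd36* level after IR. *Il1rn*, the IL-1 receptor antagonist, rose from 64.03 to 258 in WT and from 109 to 250.1 in Sirpα-/- mice (adjusted p = 0.0136). With *Il18r1* it was 1 of 2 shared among 7 considered genes of the interleukin-1 family and inflammasome (14.2% of all genes considered were shared). The medians of these 7 were 1.44 in WT and 0.76 in Sirpα-/- mice. *Entpd1*, encoding the ectonucleotidase CD39 and listed here with the endothelial and adhesion markers, rose from 81.1 to 198 in WT and from 106 to 268 in Sirpα-/- mice (adjusted p = 0.0255). *Ptafr*, the receptor of platelet-activating factor, rose from 29.9 to 97.03 in WT and from 44.7 to 113 in Sirpα-/- mice (adjusted p = 0.027). *Itgb2*, the CD18 chain of the leukocyte integrins, rose from 85.8 to 192 in WT and from 103 to 242 in Sirpα-/- mice (adjusted p = 0.0371). The last 3 had log2 ratios between 1.08 and 1.42 in both genotypes.

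Of 13 measured macrophage and monocyte markers, 11 were considered and 1 (*Fcgr4*) was shared, a share near the 14.2% of all genes, with a median log2 ratio of 0.51 in WT and 1.68 in Sirpα-/- mice. Their summed level was 3741 and 5991 in WT, and 3417 and 11487 in Sirpα-/- mice. *Csf1r*, the receptor on which macrophages depend, went from 157 to 192 normalized counts in WT and from 156 to 213 in Sirpα-/- mice, with log2 ratios of 0.27 ± 0.30 in WT and 0.43 ± 0.28 in Sirpα-/- mice (adjusted p = 0.467). *Emr1*, encoding the macrophage antigen F4/80, went from 185 to 287 in WT and from 136 to 876 in Sirpα-/- mice. *Itgax*, encoding CD11c, had log2 ratios of -0.11 in WT and -0.33 in Sirpα-/- mice. The neutrophil markers, 7 measured and 0 considered, summed to 30.9 and 106 in WT and to 56.5 and 246 in Sirpα-/- mice. Summed levels were 529 and 667 in WT and 619 and 716 in Sirpα-/- mice for 8 dendritic cell markers, 2216 and 4234, and 1348 and 3862 for 8 endothelial and adhesion markers, and 148 and 529, and 404 and 312 for 3 fibroblast markers. B cell and plasma cell markers summed to 107 and 147, and 172 and 294, regulatory T cell markers to 114 and 166, and 126 and 214, and mast cell, basophil and eosinophil markers stayed under 60 in all samples. The summed levels of all but the fibroblast markers were thus higher after IR in both genotypes. So was the sum of all 561 genes, at 167211 and 245164 in WT and 171689 and 233050 in Sirpα-/- mice. In proportion, the dendritic cell markers rose less than this total in both genotypes. The B cell and plasma cell markers rose less in WT, and so, by little, did the regulatory T cell markers. A sum can hide members that moved the other way. Of the regulatory T cell markers only *Ikzf2* was considered, with log2 ratios of -0.13 in WT and -0.54 in Sirpα-/- mice. Only 1 B cell and plasma cell marker was considered, with log2 ratios of 0.54 in WT and -1.27 in Sirpα-/- mice. Among 6 considered endothelial and adhesion markers the lowest log2 ratio in Sirpα-/- mice was -0.50. The part of these cell types in the shared genes was not tested.

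Of the 12 considered genes of the complement list 2 were shared, a share near the 14.2% of all genes considered. Both are of the alternative pathway. *Cfb*, factor B, rose from 166 to 467 normalized counts in WT and from 218 to 565 in Sirpα-/- mice, with log2 ratios of 1.44 ± 0.24 in WT and 1.33 ± 0.22 in Sirpα-/- mice (adjusted p = 0.0234). *Cfp*, properdin, rose from 104 to 333 in WT and from 161 to 417 in Sirpα-/- mice, with log2 ratios of 1.60 ± 0.29 in WT and 1.32 ± 0.25 in Sirpα-/- mice (adjusted p = 0.016). The classical components *C1qa* and *C1qb* were higher mainly in Sirpα-/- mice (log2 ratios in WT and Sirpα-/- mice of 0.18 and 2.03 and 0.84 and 1.34), and *C3* in WT alone (1.21 and -0.15). Over the 12 considered genes of 27 measured, the median was 1.38 in WT and 0.13 in Sirpα-/- mice.

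For antigen presentation and co-stimulation, *Cd86*, the ligand of CD28 on antigen-presenting cells, rose from 21.3 to 56.4 normalized counts in WT and from 48.98 to 145 in Sirpα-/- mice (adjusted p = 0.0393). *Cd83*, a marker of mature dendritic cells, rose from 33.8 to 88.0 in WT and from 55.4 to 122 in Sirpα-/- mice (adjusted p = 0.0453). Of the 16 measured co-stimulatory genes only 4 were considered, with medians of 1.33 in WT and 1.30 in Sirpα-/- mice. Of them *Cd86*, *Icos* and *Slamf7* were shared, where 14.2% of all genes considered were. Of 11 measured inhibitory receptors and ligands 6 were considered, with medians of 0.80 and 1.32. Of these *Cd274* and *Pdcd1* were shared, beside the same 14.2%. *Cd80*, the other CD28 ligand, went from 9.70 to 48.9 in WT and from 19.9 to 65.9 in Sirpα-/- mice, and missed the count because WT stayed under 50. MHC class I presentation had no shared member among 11 considered, with medians of 0.59 and 0.43, near those of all genes. Its most abundant gene, *B2m*, went from 12684 to 31770.5 in WT and from 17885 to 23441 in Sirpα-/- mice (adjusted p = 0.0453). For MHC class II the medians were 1.22 in WT and 0.45 in Sirpα-/- mice. There *Ctss* alone of 6 considered genes was shared, a share near the 14.2% of all genes considered.

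**Figure D3:**
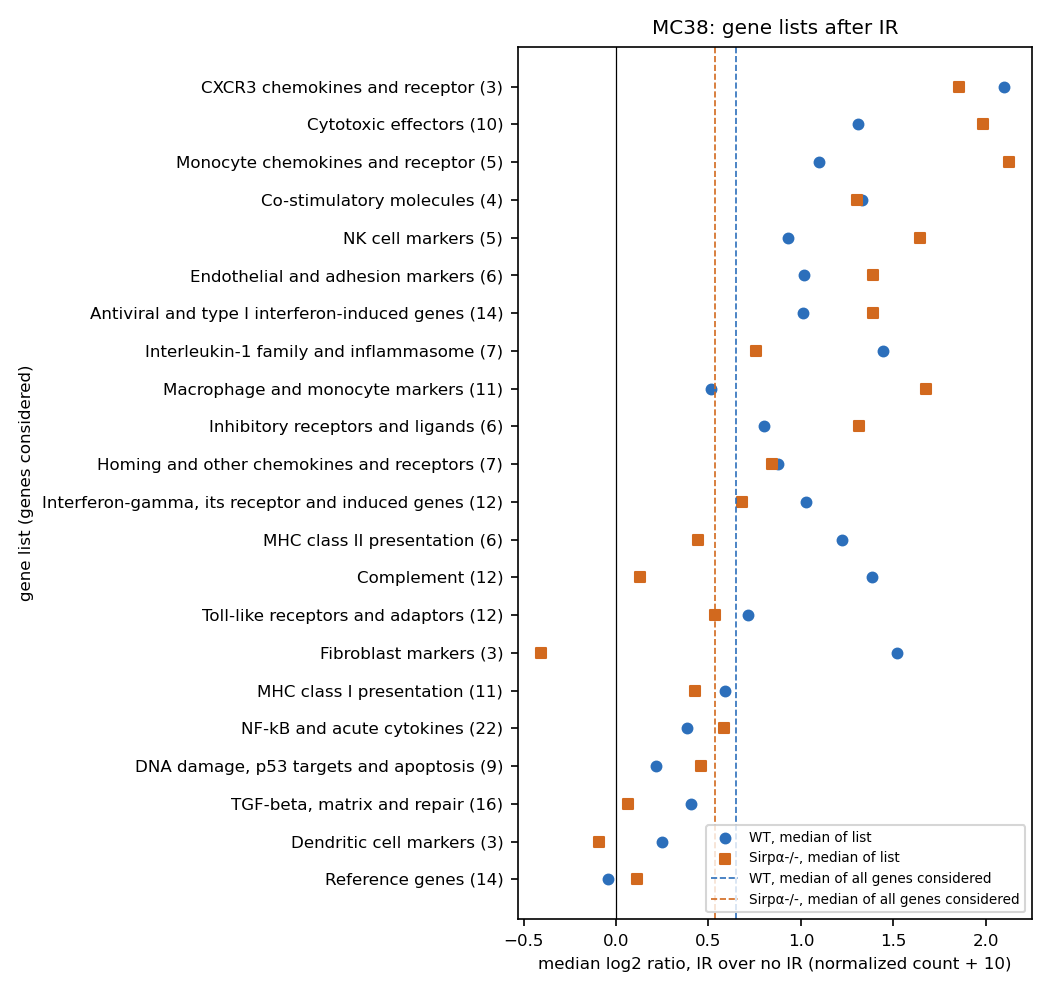
Median log2 ratio of (normalized count + 10), IR over no IR, in WT (circles) and Sirpα-/- mice (squares) for gene lists with at least 3 considered genes (number in brackets). Dashed lines mark the medians of all 302 genes, 0.65 and 0.54, and the CXCR3, cytotoxic, monocyte chemokine, co-stimulatory and antiviral lists are among those above 1 in both genotypes while the reference genes lie near 0.

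Some lists held no shared gene, where 14.2% of all genes considered were shared. Whether these lists differed from the panel was not tested. In DNA damage, p53 targets and apoptosis 0 of 9 considered genes were shared, with medians of 0.22 and 0.46. *Cdkn1a*, encoding the cell cycle inhibitor p21 and a main p53 target, went from 276 to 589 normalized counts in WT and from 352 to 487 in Sirpα-/- mice, with log2 ratios of 1.07 ± 0.20 in WT and 0.46 ± 0.19 in Sirpα-/- mice (adjusted p = 0.155). *Trp53* went from 166 to 187 in WT and from 134 to 231 in Sirpα-/- mice. For NF-kB and acute cytokines 0 of 22 considered genes were shared (medians 0.38 and 0.59), and for Toll-like receptors and their adaptors 0 of 12 (0.71 and 0.54), although *Tlr4* and *Tlr8* passed in limma with log2 changes of 1.04 and 1.03 (adjusted p = 0.0453 and 0.0453). For TGF-beta, matrix and repair it was 0 of 16 (0.41 and 0.07). *Tgfb1* went from 485 to 654 in WT and from 415 to 489 in Sirpα-/- mice. The 14 reference genes, whose sum is equal in all 4 samples, had medians of -0.05 and 0.11. Abundant ones had log2 ratios in WT and Sirpα-/- mice of -0.14 and -0.29 (*Gapdh*), 0.18 and 0.05 (*Rpl19*) and -0.02 and 0.41 (*Ppia*), and scaling to the median ratio turned the mean sign of *Rpl19* and *Ppia* to -0.39 and -0.32.

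Few genes were lower after IR. Of the 302 genes 15 were lower after IR in both genotypes, none by 2-fold in both, and 4 (1.32%) had both irradiated values below both others. *Tfrc*, the transferrin receptor that takes up iron in dividing cells, went from 3035 to 1640.5 normalized counts in WT and from 2105 to 1264 in Sirpα-/- mice, with log2 ratios of -0.88 ± 0.10 in WT and -0.73 ± 0.10 in Sirpα-/- mice. It did not pass in limma (adjusted p = 0.11) with the values as deposited, but it did after scaling to the median ratio, where it was lower by 2-fold in both genotypes, and in the fit of all 12 samples with either scaling. *Tgfbi*, a matrix protein induced by TGF-beta, went from 889.8 to 654 in WT and from 788 to 415 in Sirpα-/- mice, with log2 ratios of -0.44 ± 0.16 in WT and -0.91 ± 0.16 in Sirpα-/- mice (adjusted p = 0.206). The other 2 whose groups did not overlap were *Ikzf2* (-0.13 and -0.54 in WT and Sirpα-/- mice) and *Prkcd* (-0.32 and -0.01), each within its counting error in 1 genotype.

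Some of the largest ratios were not shared. *Serping1*, the C1 inhibitor, went from 5.04 to 366 normalized counts in WT and from 144 to 101.5 in Sirpα-/- mice. *Cxcl12*, a chemokine of stromal cells, went from 4.27 to 201 in WT and from 175 to 82.8 in Sirpα-/- mice. In both genes the WT sample without IR had the lowest value, resting on 6.49 and 5.50 net counts. *Irf7*, the interferon-inducible factor that amplifies type I interferons, went from 111 to 184 in WT and from 66.2 to 772 in Sirpα-/- mice, and passed in limma through its mean (adjusted p = 0.018). Only 2 genes were 2-fold or more higher in one genotype and as much lower in the other: *Il13ra1*, a receptor chain for IL-13, went from 457 to 1356 in WT and from 862 to 420.1 in Sirpα-/- mice, and *Il17a*, a cytokine of Th17 and gamma-delta T cells, went from 5.82 to 100.0 in WT and from 66.2 to 8.90 in Sirpα-/- mice. With 1 sample per condition, none of these differences between genotypes was tested.

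Whether the IR effect in MC38 differed from that in the pancreatic models Pan02 and KPC was tested in 1 limma fit of all 12 samples, with each genotype and tumor pair as a block. The difference was MC38 minus the mean of Pan02 and KPC, over 461 genes, and it rested on ratios within each model because the values were scaled separately for each. It was more positive for 22 genes (4.77%) and less positive for 7 (1.52%), and 14 of the 22 were among the 43 shared genes, which had been chosen on their MC38 ratios. *Ccl8* stood first, with a difference of 4.35 (SE 0.36, adjusted p = 7.5e-15), and its values were lower after IR in KPC, from 3026 to 277 in WT and from 3307 to 413 in Sirpα-/- mice. *Ifi204* followed, with a difference of 2.70 (SE 0.40, adjusted p = 2.04e-06), and its log2 ratios elsewhere were -0.74 and -0.69 in Pan02 and -0.41 and -0.82 in KPC (WT and Sirpα-/-). Among the lymphocyte genes were *Prf1* (2.05, adjusted p = 0.00979), *Gzmb* (2.15, adjusted p = 0.00304), *Klrd1* (1.98, adjusted p = 0.00304), *Cd3d* (2.22, adjusted p = 0.012) and *Ptpn22* (2.39, adjusted p = 0.00218). Others were *Ccl3*, *Ccl5*, *Ccl7*, *Ctss*, *Il18r1* and *Il2rb*, with differences of 1.39 to 2.33 and adjusted p-values of 0.00304 to 0.0494. The KPC samples without IR had only 21576 (WT) and 12292 (Sirpα-/-) net counts, and without KPC 6 of the 14 genes passed, among them *Ccl5*, *Ccl8*, *Ctss*, *Ifi204* and *Klrd1*. Without Pan02 9 of the 14 passed, without the WT pair of MC38 6 and without its Sirpα-/- pair 8, and all 14 differences were above 0 in each of these fits.

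For the remaining 29 shared genes the difference between models did not pass, which does not show that they act alike. In WT and then Sirpα-/- mice the log2 ratios of *Cxcl10* were 0.65 and 1.66 in Pan02 and 3.45 and 4.28 in KPC, those of *Mx1* -0.10 and 4.30 in Pan02 and 1.96 and 3.93 in KPC and those of *Cd274* 0.46 and 1.27 in Pan02 and 1.64 and 2.23 in KPC. The *Cxcl10* ratio of Sirpα-/- mice with KPC started from 6.48 normalized counts, the lowest value of that sample and worth 1 count. In Pan02 and KPC, too, the irradiated Sirpα-/- sample had a raised low end. Its 20th percentile was 49.5 in Pan02 and 17.8 in KPC, against 3.53 to 6.48 in the other samples of these models. The part of this in the ratios was not tested. The same 2-fold rule counted 5 of 315 genes (1.59%) in Pan02, none of them among the 43, and 72 of 246 (29.3%) in KPC. In KPC only 27 of the 43 genes were considered. Of these 27, 7 were counted (*Cd274*, *Cd36*, *Cfb*, *Cxcl10*, *Fcgr4*, *Il1rn* and *Mx1*), beside the 72 of all 246. The 7 are 9.72% of the 72. The median log2 ratio of the 43 genes was -0.25 in WT and 0.65 in Sirpα-/- mice with Pan02, and 0.83 and 0.73 with KPC, against 0.12, 0.44, 0.80 and 0.79 over the 302 genes.

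**Figure D4:**
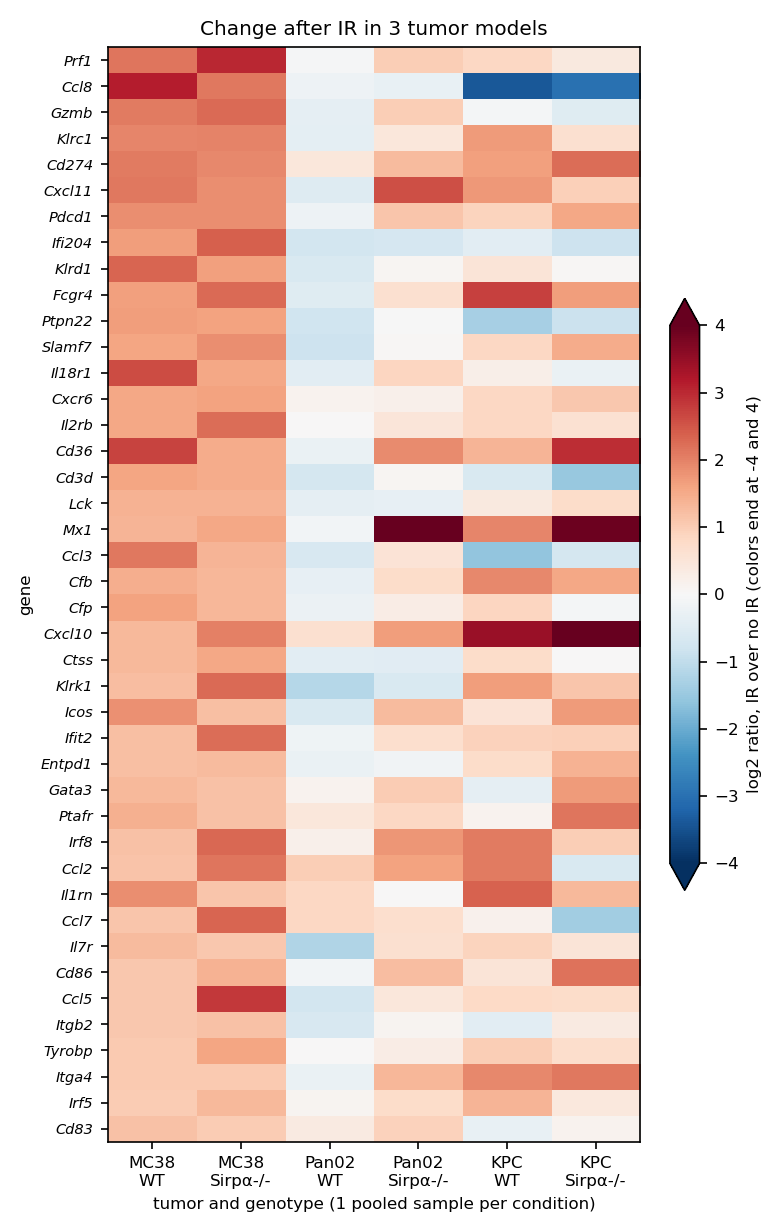
Log2 ratio of (normalized count + 10), IR over no IR, for 42 of the 43 genes (rows, ordered by the smaller MC38 ratio) in each tumor and genotype (columns, 1 pooled sample per condition). The MC38 columns are red throughout because the genes were chosen on them, while *Ccl8* is blue in both KPC columns and *Mx1* and *Cxcl10* are redder in the KPC columns than in the MC38 columns.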

How the data were processed

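From each pooled sample 100 ng of tumor RNA was hybridized to the nCounter Mouse Immunology Panel, whose barcoded probes are counted without amplification. The deposited values are normalized counts, a signal that the authors made in nSolver 2.6 by deducting the negative controls and applying a positive-control factor. The 14 reference genes sum to a constant within each tumor model, which appears to be a further scaling. Both deposited tables agreed in all 6732 gene values, and 8 negative and 6 positive control rows were dropped. Groups came from the labels. Whole counts could be recovered from the steps between low values, and counting intervals (95%) were made from them, without a count model.

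A gene was considered where the larger value of each pair was at least 50, and shared where the log2 ratio, with a pseudocount of 10, was at least 1 in the same direction in both pairs. The test was that of limma (version 3.58.1, under R version 4.3.3), on log2(value + 10) and with the genotype as a block because the samples of a pair share it, and P values were adjusted by the Benjamini-Hochberg method. Each sample is a pool, so P values do not measure the spread between mice. Their error is the difference between the genotypes in the IR effect, with most of it borrowed from the other genes. The fit was tried on data made with known changes for 347 genes. It called 62 of 100 genes at a log2 change of 1, 100 of 100 at 2 and 1 of 147 without change. The made data gave every gene the same noise level (SD 0.38) and held no shift across all genes. In the measured data the median log2 change over the 347 genes was 0.69. Because of this difference, the made data cannot show how often the fit errs on measured genes. The rule for named genes took the shared genes with the largest ratios, the genes with the smallest adjusted P, those with the largest and smallest ratios in each list, the genes that differed most between genotypes and the reference genes. The other shared genes are named beside them, except that 1 of the 43 and 1 gene list are counted but not reported here, and any other gene was chosen after its values were seen, as background to its list. The members and the lists were chosen with earlier results of these data known. Alternatives covered scaling, pseudocount, level filter, the block, the trend, the methods' t-test and the samples fitted. Promoters came from RefSeq (GRCm38.p6). Plots used matplotlib (version 3.10.9, Python version 3.11.15).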

Additional observations from a re-analysis of the deposited data

Results flagged for a closer look

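Of the 302 genes considered, 33 had ratios of opposite sign in the 2 genotypes, each beyond its counting error, and 4 of these have values in the report. The differences were not tested because each condition is 1 sample. The Sirpα-/- log2 ratio minus the WT log2 ratio was -5.11 for *Serping1*, -4.88 for *Cxcl12*, -4.81 for *Il17a* and -2.57 for *Il13ra1*. All 4 were higher after IR in WT and lower in Sirpα-/- mice.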

How the results depend on the processing

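Each scaling shifts the ratios of a pair by nearly the same amount, which leaves genes chosen at 1 or more little room to turn. All 43 shared genes kept ratios above 0 in both genotypes under both scalings. Their number was 39 after rescaling to the geometric mean of the reference genes, 16 (with *Tfrc*, 1 lower) after median-ratio scaling, 71 with no level filter, 103 (and 1 lower) at 1.5-fold, 22 where both values of a pair had to reach 50, and 97 to 118 higher and 1 to 4 lower with 1 pair left out, a rule that then asks for 1 genotype only. The 64 limma calls became 0 with the reference-gene scaling (smallest adjusted p 0.156), 0 with a pseudocount of 1 or the methods' t-test (36 at an unadjusted p under 0.05), 25 with median-ratio scaling (3 lower), 39 with a pseudocount of 30, 111 with a filter at 20, 28 with no genotype block, and 36 to 41 in the fit with the other tumor models when 1 MC38 pair was left out (81 with both pairs). With all 12 samples and a scaling it was 50 and 1 lower (reference-gene scaling) and 21 and 2 lower (median-ratio scaling), both added after seeing the data. With a pair left out the remaining MC38 pair is assumed to vary like the other tumor models.

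Against Pan02 and KPC, 22 genes were more and 7 less positive. These numbers were 13 with a filter at 100 (more positive), 2 and 0 with no filter, 12 and 0 without KPC, 23 less positive without Pan02, 18 less positive with median-ratio scaling, 11 and 2 with the genotype as a term, and 7 to 25 and 2 to 11 with 1 MC38 pair left out. The cause of these shifts was not tested.

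Under median-ratio scaling (4 samples, then all 12) the mean log2 change turned negative for *Ccl9* (-0.25, -0.27), *Ccr2* (-0.27, -0.29), *Csf1r* (-0.14, -0.15), *Eomes* (-0.21, -0.23), *Il13ra1* (-0.24, -0.26), *Ppia* (-0.32, -0.34), *Rpl19* (-0.39, -0.42), *Tbk1* (-0.23, -0.25), *Tgfb1* (-0.18, -0.20) and *Trp53* (-0.034, -0.053). With the Sirpα-/- pair as the only MC38 pair and then with the WT pair, the log2 change was -0.15 and 1.21 for *C3*, -0.995 and 3.89 for *Cxcl12*, -1.02 and 1.55 for *Il13ra1*, -2.01 and 2.80 for *Il17a*, -0.46 and 4.65 for *Serping1*, 1.16 and -0.10 for *Ccl12*, 0.41 and -0.021 for *Ppia* and 1.13 and -0.014 for *Xcl1*. No shared gene turned, and where a pair was left out the rule for shared genes had fixed this in advance. Values near 1 to 5 normalized counts rest on few counts, and the pooled samples give no spread between mice.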
